A study of Caenorhabditis elegans with 12 samples.

Results

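The numbered col genes are the protein-coding genes of Caenorhabditis elegans named col followed by a number, most of them collagens of the cuticle. The family was chosen with earlier results of these data known, and its members by name. Every gene of the count table whose name in the WBcel235 annotation was col- and digits was taken, which gave 156 of 46926 genes. Chromosome IV held 41 of them, V held 31, X held 27, II held 24, I held 21 and III held 12. Their exons summed to 465 to 2960 bases with a median of 1020, and 145 of the 156 measured 800 to 1500 bases, so levels of most of these genes can be compared without a large effect of length.

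Cuticle collagens are secreted by the hypodermis, the epidermis of the worm, as chains of Gly-X-Y repeats that are hydroxylated, trimmed, assembled into triple helices and crosslinked outside the cell. A new cuticle is built before each molt, and many collagen genes are switched on in waves of the molting cycle or at 1 stage only. Young adults have passed their last molt, and genes such as col-19, which the transcription factor LIN-29 activates in adults, replace larval genes such as col-17, which LIN-29 represses.

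RNA of whole N2 hermaphrodites, the wild-type laboratory strain, was sequenced after 48 h on agar plates at 20 °C that began at the young adult stage. The 3 groups were DMSO, the solvent, as the control, bromhexine at 100 µM, a mucolytic drug, and genipin at 200 µM, a plant compound known to crosslink proteins. All plates carried OP50-1 bacteria with streptomycin and FUDR, an inhibitor of DNA synthesis that blocks progeny, and the labels place all libraries in batch 1. Each group held 4 libraries, 12 in all. The comparisons ask which transcripts differ between worms on each compound and worms on the solvent, and between the compounds. Whether replicates came from separate cultures is not stated in the labels. Every p-value therefore measures only the spread between the libraries at hand, and that spread may be technical.

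The libraries held 20.3 to 28.1 M counts, and 13695 genes passed the filter on low counts and were tested. Levels are given as CPM, counts per 1 M scaled by TMM factors, with SD over n = 4 libraries, and log2 fold changes as ± SE. Calls were made in edgeR's quasi-likelihood test where p, adjusted over all 13695 genes, was under 0.05. The library labelled genipin replicate 1 stood apart at genes that bromhexine raised: cyp-35B2, a cytochrome P450 gene, measured 29.7 CPM in it, 1.48 to 4.20 CPM in the other genipin libraries and 781 to 898 CPM with bromhexine. Against DMSO, counts of edgeR calls and class medians with genipin are therefore given with and without it, as are differences of genes described singly. Between the compounds, counts are given both ways, and single genes with all libraries only. Of the hypodermis markers, 8 of 12 were tested, and with bromhexine 4 were called higher and 2 lower, while their summed level was 758 to 878 CPM in DMSO, 864 to 1013 CPM with bromhexine and 852 to 887 CPM with genipin. The markers wrt-1, wrt-2, wrt-4 and osm-8 were under the filter, and all 4 had lower means with bromhexine (0.0335 to 0.0942 CPM) than in DMSO (0.231 to 0.527 CPM). Their means with genipin were under those in DMSO as well (0.11 to 0.28 CPM). These levels rest on few counts, and bromhexine and DMSO libraries overlapped for all of them but wrt-4.

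In DMSO the numbered col genes took 1.78%, 1.74%, 1.60% and 1.70% of the counts of replicates 1 to 4, and few genes made up most of this. The abundant class, set at a mean of 100 CPM or more in DMSO, held 21 genes and 95.7% to 96.6% of these counts. The 10 genes with the highest DMSO means alone held 77.1% to 78.8% of them. A further 18 genes were intermediate, from 10 to under 100 CPM, 49 were scarce, from 1 to under 10 CPM, and 68 had only a trace, under 1 CPM. The classes use the DMSO libraries that both compounds are compared with, so they serve as description. At the limits, col-93 (144.4 CPM) was the lowest abundant and col-166 (62.3 CPM) the highest intermediate gene, col-167 (12.2 CPM) stood against col-121 (9.92 CPM), and col-89 (1.10 CPM) against col-146 (0.878 CPM).

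**Figure D1:**
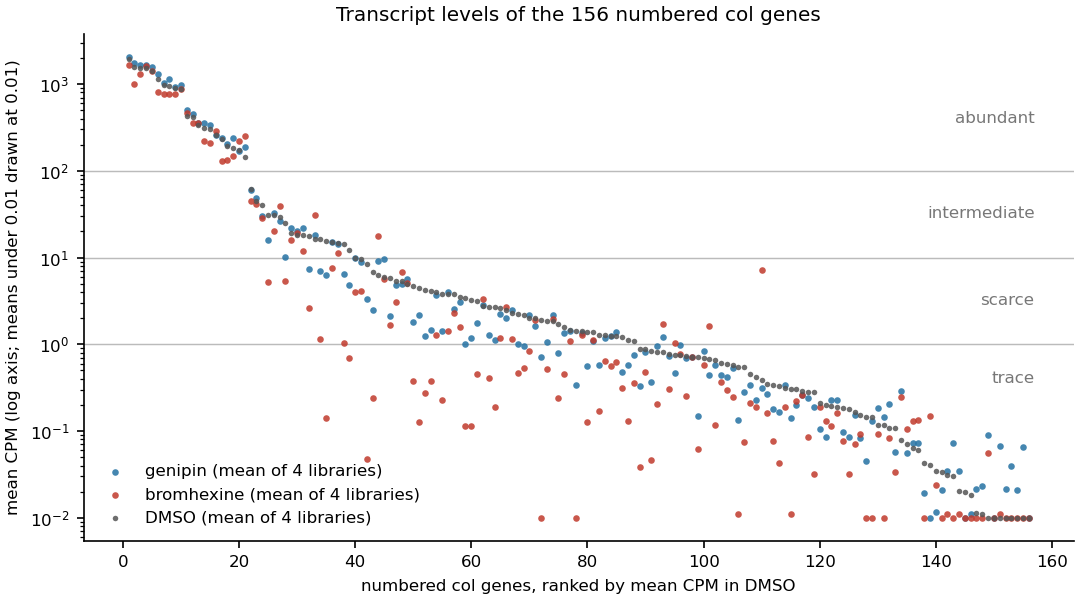
Mean CPM on a log axis of each of the 156 numbered col genes in DMSO, bromhexine and genipin (4 libraries each), ranked by the DMSO mean, with lines at 100, 10 and 1 CPM; means under 0.01 CPM are drawn at 0.01. The bromhexine means of the 21 abundant genes lie between 0.559 and 1.74 times their DMSO means, while many bromhexine means of lower ranks lie far under it and col-36, at rank 110, lies far above it.

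All 88 genes of the 3 higher classes were tested, so the filter took no part in which of them are described. Of the 68 trace genes, 20 were tested. Among these 20, 8 passed the filter only with the DMSO libraries counted and 1, col-36, only with the bromhexine libraries counted. Of the 8, col-72, col-146, col-170 and col-186 also needed the genipin libraries. The counts of trace genes are therefore given as description. The other 48 had DMSO means of at most 0.459 CPM. One, col-185, had no count in any library, and 3 counts over the 12 libraries would be 0.0106 CPM. Between 136 and 142 of the 156 genes had a count in each DMSO library, 123 to 127 in each bromhexine library and 136 to 140 in each genipin library.

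The highest level in DMSO was that of col-122, at 2038, 1778, 1843 and 2047 CPM in replicates 1 to 4. Next came col-95 with a mean of 1582 ± 108 CPM, col-181 with 1539 ± 103, col-119 with 1514 ± 133, col-140 with 1423 ± 116 and col-143 with 1145 ± 92.1 CPM. These 6 were the genes above 1000 CPM. From col-95 to col-140, neighbours in this order differed by less than the SD of either. Per kilobase of exon, DMSO levels were 2013 CPM for col-122, 1740 for col-119, 1527 for col-140 and 1503 for col-95, and 7 of the 8 genes with the highest CPM were also among the 8 highest per kilobase. The adult-specific gene col-19 (WBGene00000608, X, start 421707, end 422691) ranked 16 by CPM, with 295, 291, 215 and 238 CPM. The larval gene col-17 (WBGene00000606, II, start 4866436, end 4867576) was at 7.92, 26.9, 14.3 and 13.5 CPM, so its highest library stood well under the lowest of col-19. Another adult-specific gene, col-7, was near the limit of detection, with a DMSO mean of 0.108 CPM, and was not tested. Its neighbour col-62 had 0.740 ± 0.467 CPM. The genes col-49 (0.0342 CPM) and col-63 (0.314 CPM) were not tested either, and col-38 had 2.46 ± 0.424 CPM.

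With bromhexine a large part of the genes held at low levels in DMSO fell, and few of the abundant ones fell by much. Of the 88 genes at 1 CPM or more in DMSO, 55 fell and 5 rose, against 23.8% lower and 20.7% higher among all 11704 genes of that level. Their median log2 fold change was -0.89, against 0.01 over all genes of that level. Over all 108 tested genes, 65 were called lower and 8 higher. Of all 13695 genes, 40.8% were called and 21.8% were called lower. The number of all genes called higher was 2602. Of the 108, 49 were called lower with at least a 2-fold difference and 22 with at least an 8-fold one, beside 7.52% and 0.394% of all genes. In 57 of the 108 all 4 bromhexine libraries lay under all 4 DMSO libraries, beside 19.7% of all genes. Of the 88 genes at 1 CPM or more this held for 47, beside 2502 of all 11704 genes of that level. The counts over the 108 include 8 trace genes that passed the filter only with the DMSO libraries counted, so they are given as description. In whole worms, fewer cells that transcribe a gene and less RNA per cell cannot be told apart.

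The share of the library taken by the numbered col genes was 1.15%, 1.32%, 1.22% and 1.65% with bromhexine, a mean of 1.34% ± 0.220 against 1.70% ± 0.0754 in DMSO (SD, n = 4). The first 3 bromhexine libraries lay under every DMSO library, and replicate 4 lay inside the DMSO range. The abundant genes set this share. Their summed level was 11951, 13453, 12438 and 17123 CPM with bromhexine against 14583 to 16800 CPM in DMSO. The scarce genes summed to 67.5 to 97.0 CPM with bromhexine and 148 to 197 CPM in DMSO, with no overlap. The sum of the intermediate genes was 235.1 to 356.9 CPM against 397 to 472 CPM, also with no overlap, and that of the trace genes was 16.3 to 22.0 CPM against 19.3 to 21.5 CPM.

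Among the 21 abundant genes, 8 fell and 2 rose, with a median log2 fold change of -0.23. Of all 2345 genes of that class, 16.7% were called lower and 31.9% higher, and the median was 0.08. The largest fall in the class was that of col-98, at 231 ± 22.9 CPM in DMSO and 129 ± 20.9 CPM with bromhexine (-0.84 ± 0.10 on the log2 scale, adjusted p = 1.49e-05). Among the 18 intermediate genes, 12 fell and 2 rose, with a median of -0.60. Over all genes of the class 24.4% were lower and 22.3% higher, with a median of 0.02. Among the 49 scarce genes, 35 fell and 1 rose, with a median of -1.60, beside 26.97% lower, 12.2% higher and a median of -0.15. Of the 20 tested trace genes, 10 were called lower and 3 higher (9.94% and 9.14% of all 1991 tested genes of the class). The filter partly sets this count, since 9 of the 20 passed it only with the DMSO or only with the bromhexine libraries counted. Without bromhexine replicate 4, 13 abundant genes were called lower, and the number ran from 6 to 13 over the left-out libraries.

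**Figure D2:**
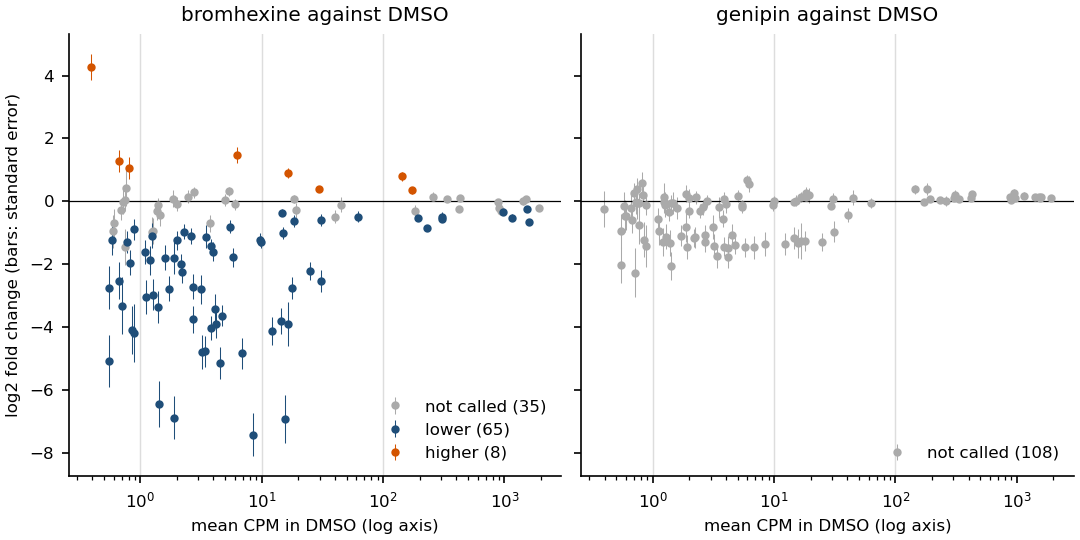
Log2 fold change of the 108 tested numbered col genes against their mean CPM in DMSO (log axis), for bromhexine against DMSO and genipin against DMSO, with bars for the standard error and lines at 1, 10 and 100 CPM. With bromhexine 65 genes were called lower and 8 higher, and the falls of more than 1 on the log2 scale lie under 100 CPM; with genipin none of the 108 was called.

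Of the most abundant genes, col-95 (WBGene00000670, III, start 11703994, end 11705091) measured 1741, 1553, 1505 and 1528 CPM in DMSO and 912, 936, 897 and 1268 CPM with bromhexine. All bromhexine libraries lay under all DMSO libraries, and the log2 fold change was -0.66 ± 0.10 (adjusted p = 0.000192). The gene col-143 measured 1264, 1167, 1053 and 1098 CPM in DMSO and 667, 734, 739 and 1068 CPM with bromhexine. Its groups overlapped through bromhexine replicate 4, and the log2 fold change was -0.51 ± 0.12 (adjusted p = 0.0037). The gene col-106 fell from 970 ± 34.2 to 762 ± 99.4 CPM (-0.35 ± 0.08, adjusted p = 0.0035) with no overlap. The call of col-181 (-0.25 ± 0.09, adjusted p = 0.0399) was lost without any 1 of 6 libraries, DMSO replicates 1, 3 and 4 and bromhexine replicates 1, 2 and 3, with adjusted p of 0.0535 to 0.129.

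The most abundant gene, col-122, measured 1511, 1672, 1460 and 1982 CPM with bromhexine, a log2 fold change of -0.22 ± 0.09 that missed the threshold (adjusted p = 0.0629). Without bromhexine replicate 4 it was -0.31 (adjusted p = 0.0040). For col-101 the log2 fold change was -0.29 ± 0.13 (adjusted p = 0.0841) and, without that library, -0.46 (adjusted p = 0.0012). The values of col-119 (0.08 ± 0.11) and col-140 (0.01 ± 0.11) did not pass the test, and neither did that of the adult-specific col-19, at 207, 265, 283 and 396 CPM with bromhexine (0.15 ± 0.15, adjusted p = 0.445). For these 3 genes bromhexine replicate 4 was the highest of the 12 libraries, and without it their log2 fold changes were -0.048, -0.144 and -0.043.

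The largest falls among genes at 1 CPM or more in DMSO were in genes of 1 to 20 CPM. The gene col-73 (WBGene00000649, II, start 4872098, end 4873129) measured 4.54, 15.8, 5.98 and 7.59 CPM in DMSO and 0.154, 0, 0 and 0.0382 CPM with bromhexine. DMSO replicate 2 was the highest and no bromhexine library came near the DMSO range (log2 fold change -7.41 ± 0.67, adjusted p = 1.33e-06). Its neighbour col-17, the larval gene, was at 0.564, 0, 0 and 0 CPM with bromhexine and had a log2 fold change of -6.93. All its counts with bromhexine came from replicate 1, and without that library the fitted value was -11.55, which against a group at 0 is no measure of size. In the 4 bromhexine libraries together col-161 had 1 count, against 191 in DMSO, a ratio of 174 after scaling with an exact 95% interval of 30.8 to 6903 that covers counting error only. Likewise col-91 had 1 count against 138, a ratio of 126 (22.2 to 4997).

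The gene col-90 fell from 4.50 ± 2.06 to 0.126 ± 0.0916 CPM (-5.14 ± 0.50), col-41 from 6.81 ± 3.68 to 0.239 ± 0.135 CPM (-4.83 ± 0.50), col-65 from 3.21 ± 1.43 to 0.113 ± 0.105 CPM (-4.78 ± 0.53) and col-77 from 3.39 ± 0.80 to 0.113 ± 0.105 CPM (-4.76 ± 0.49). None of these 4 overlapped between the groups. DMSO replicate 2 was the highest DMSO library for each of col-17, col-73, col-90, col-41, col-65, col-77 and col-91. Without it, 55 of the 88 genes were called lower, the same number as with it. Across the 12 libraries the log2 CPM of col-17 was most like that of col-73 (Pearson r = 0.99), col-90 (0.98), col-41 (0.97), col-12 (0.92) and col-97 (0.92) among the 82 genes with a mean of at least 1 CPM over all libraries. The pattern of col-19 was most like that of col-8 (0.86), col-119 (0.84), col-140 (0.76), col-178 (0.72) and col-93 (0.69). These values describe 12 libraries that share the difference between the groups.

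The smallest p among the numbered col genes was that of col-12, at 4.30, 6.25, 4.75 and 3.69 CPM in DMSO and 0.536, 0.111, 0.469 and 0.414 CPM with bromhexine (-3.63 ± 0.33, adjusted p = 1.15e-06). Its near-identical neighbour col-13 fell from 4.19 ± 1.05 to 0.275 ± 0.249 CPM (-3.90 ± 0.44, adjusted p = 1.35e-05). Overexpression of col-10, col-13 or col-120 is known to lengthen worm life. Of these col-10 fell from 24.8 ± 7.70 to 5.36 ± 1.53 CPM (-2.20 ± 0.29, adjusted p = 4.92e-05), while col-120 was at 0.190 CPM in DMSO and 0.163 CPM with bromhexine and was not tested. The gene col-99, which codes for a transmembrane collagen, fell from 18.3 ± 2.73 to 11.9 ± 3.95 CPM (-0.62 ± 0.20, adjusted p = 0.0207). Its call was lost without DMSO replicate 3 or without bromhexine replicate 1, 2 or 3, with adjusted p of 0.0510 to 0.0698.

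**Figure D3:**
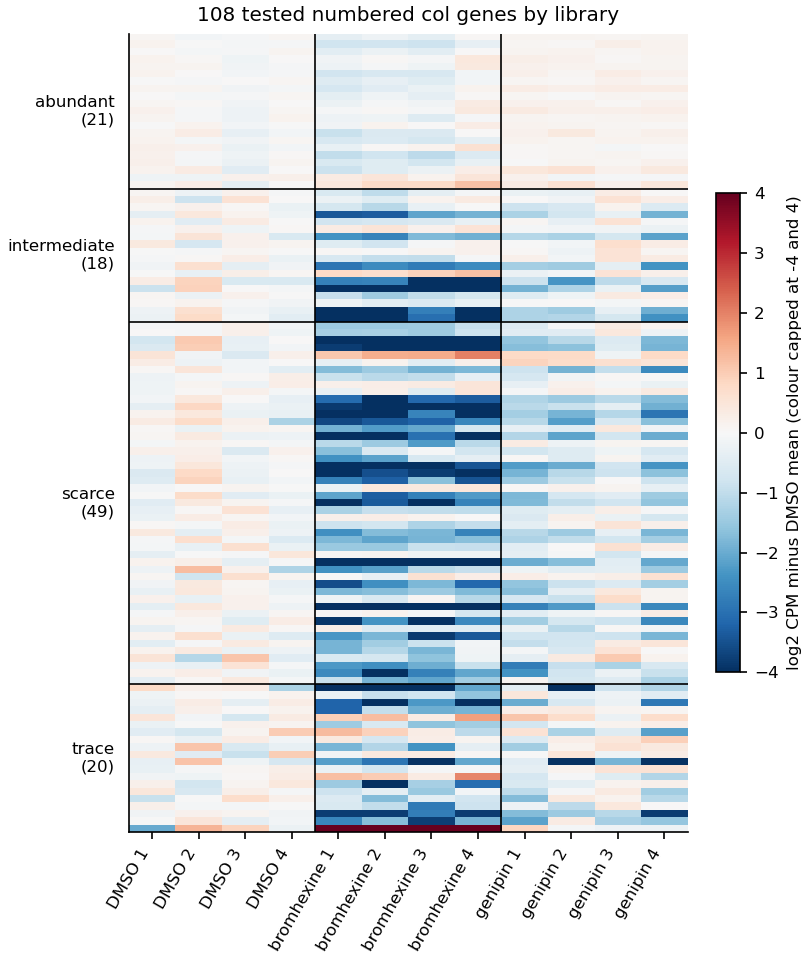
Log2 CPM of the 108 tested numbered col genes in each of the 12 libraries minus the mean of the 4 DMSO libraries, with genes as lines of the map ordered by mean CPM in DMSO within the 4 classes and the colour capped at -4 and 4. Blue, lower levels take most of the bromhexine columns of the scarce class, with red lines such as col-43, col-142 and col-36 among the lower classes, bromhexine replicate 4 is the palest of the 4 in the abundant class, and among the genipin columns replicate 3 is closest to DMSO in the scarce class.

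The heat map shows how far the libraries of a group differ. The median difference of the abundant genes from their DMSO mean was -0.40, -0.20, -0.35 and 0.04 on the log2 scale in bromhexine replicates 1 to 4. For the scarce genes it was -1.86, -1.73, -1.81 and -1.07. Replicate 4 was thus the highest of the 4 in both classes, and for the scarce genes it still lay under every DMSO library, which ran from -0.10 to 0.20. Molting genes, counted below, summed to 203, 176, 169 and 266 CPM in the same libraries, with replicate 4 again the highest; their part in the result was not tested.

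The 8 genes that rose with bromhexine came from every class. In col-36 (WBGene00000613, II, start 7167511, end 7168812) the DMSO libraries measured 0.0349, 0.762, 0.547 and 0.226 CPM and the bromhexine libraries 7.95, 8.15, 5.26 and 7.68 CPM. The gene thus went from the trace class to the level of scarce genes (log2 fold change 4.27 ± 0.42), while genipin libraries measured 0.233 to 0.535 CPM. It passed the filter only through the bromhexine libraries, so its values are given as description. In col-43 (WBGene00000620, V, start 8049703, end 8050911) the DMSO libraries measured 8.62, 5.43, 4.01 and 6.99 CPM and the bromhexine libraries 12.7, 16.4, 16.9 and 24.3 CPM. These did not overlap, and the log2 fold change was 1.48 ± 0.25 (adjusted p = 0.000415).

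Among the abundant genes col-93 measured 154, 171, 112 and 140 CPM in DMSO and 191, 244, 243 and 325 CPM with bromhexine (0.80 ± 0.15, adjusted p = 0.000808). Among the intermediate genes col-142 (WBGene00000715, V, start 6831177, end 6832256) measured 16.4, 13.2, 19.3 and 17.4 CPM in DMSO and 28.6, 26.2, 30.9 and 37.4 CPM with bromhexine (0.90 ± 0.16, adjusted p = 0.000677). Neither pair of groups overlapped. The rises of col-94, from 29.5 ± 3.0 to 38.9 ± 4.70 CPM (0.40 ± 0.10, adjusted p = 0.0042), and col-179, from 173 ± 24.9 to 220 ± 24.2 CPM (0.35 ± 0.10, adjusted p = 0.0132), were smaller and their groups overlapped. Of the trace genes col-135 rose from 0.672 ± 0.113 to 1.62 ± 0.768 CPM (1.27 ± 0.35, adjusted p = 0.0103) and col-81 from 0.808 ± 0.280 to 1.72 ± 0.629 CPM (1.07 ± 0.35, adjusted p = 0.0252). The call of col-81 was lost without DMSO replicate 2 or 3 or bromhexine replicate 2 or 4, with adjusted p of 0.0541 to 0.0788. For no gene but col-36 among these 8 did the bromhexine mean reach 3 times the DMSO mean.

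**Figure D4:**
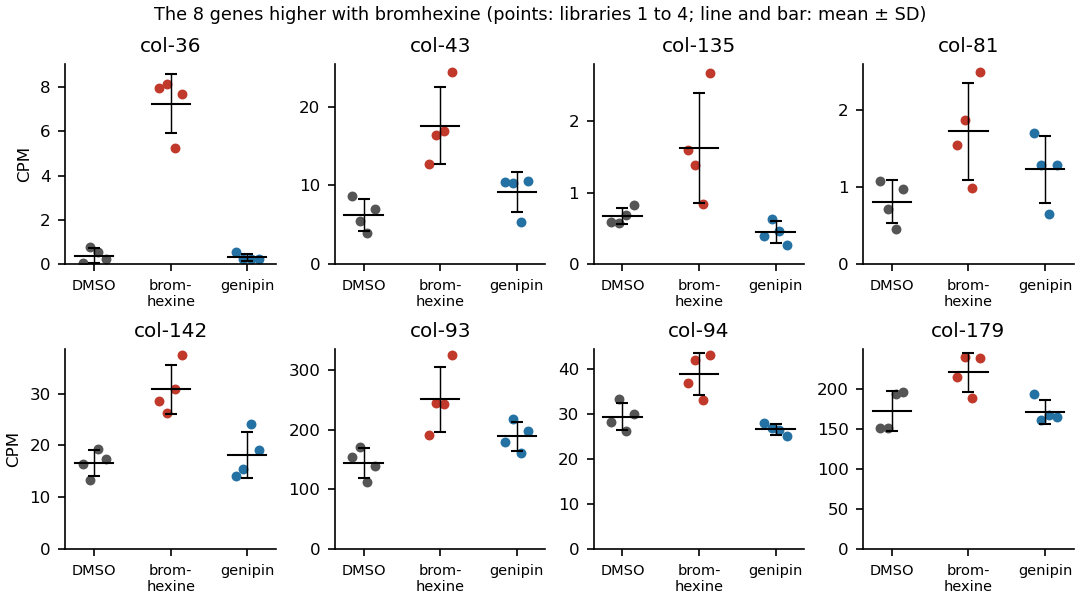
CPM in each library (points), with mean and SD, of the 8 numbered col genes called higher with bromhexine; each panel has its own linear axis from 0. In col-36 the 4 bromhexine libraries lie at 5.26 to 8.15 CPM and all other libraries under 1 CPM, while in col-94, col-179 and col-81 bromhexine libraries overlap with DMSO libraries.

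Collagen genes that resemble each other can share reads, and the authors' counting divides such reads between them. Genes with decimals in at least 6 of the 12 libraries were put in sets whose counts add up to whole numbers. The margin was 0.015 for pairs and wider for larger sets. This gave 9 sets with 23 of the genes: 6 pairs, 2 trios and a quintet. Within a set the division is an estimate, so the sum is the firmer value. The pair col-12 and col-13 fell as a sum from 8.94 ± 2.05 to 0.657 ± 0.369 CPM (-3.76 ± 0.33, adjusted p = 9.41e-07), and the trio col-3, col-117 and col-125 from 65.2 ± 20.1 to 9.02 ± 1.67 CPM (-2.85 ± 0.24, adjusted p = 6.44e-07). In both sets every gene fell by itself as well.

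In other sets the genes and their sum differed. The call of col-179 ended in the sum with col-178, which was 1050 ± 37.04 CPM in DMSO and 1092 ± 168 CPM with bromhexine (0.06 ± 0.09, adjusted p = 0.638). Most of this sum was col-178, so it cannot decide whether col-179 rose. In the trio on chromosome III, col-92 fell (-1.78 ± 0.31) while col-93 and col-94 rose, and the sum rose from 180 ± 28.9 to 291 ± 58.0 CPM (0.70 ± 0.13, adjusted p = 0.0010). In the quintet on chromosome X, col-167, col-168, col-169 and col-170 had log2 fold changes of -4.12, -4.02, -2.77 and -3.31, and the more abundant col-166 one of -0.49. The quintet's sum fell by 0.82 on the log2 scale (adjusted p = 0.0012). The sum of col-10 and col-144 fell from 65.3 ± 12.3 to 34.3 ± 10.5 CPM (-0.92 ± 0.22, adjusted p = 0.0041), although col-144 alone was not called (-0.48 ± 0.22, adjusted p = 0.0851). The sum of col-7 and col-62 was called lower (-1.27 ± 0.49, adjusted p = 0.0489) where col-62 alone was not (-1.46 ± 0.57, adjusted p = 0.0523). The sums of col-154 with col-155 (-0.14 ± 0.23) and col-159 with col-160 (-0.24 ± 0.09, adjusted p = 0.0523) were not called, though col-154 and col-159 were called lower by themselves. In both sums the uncalled partner was the more abundant gene, so they cannot decide on col-154 or col-159 either.

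**Figure D5:**
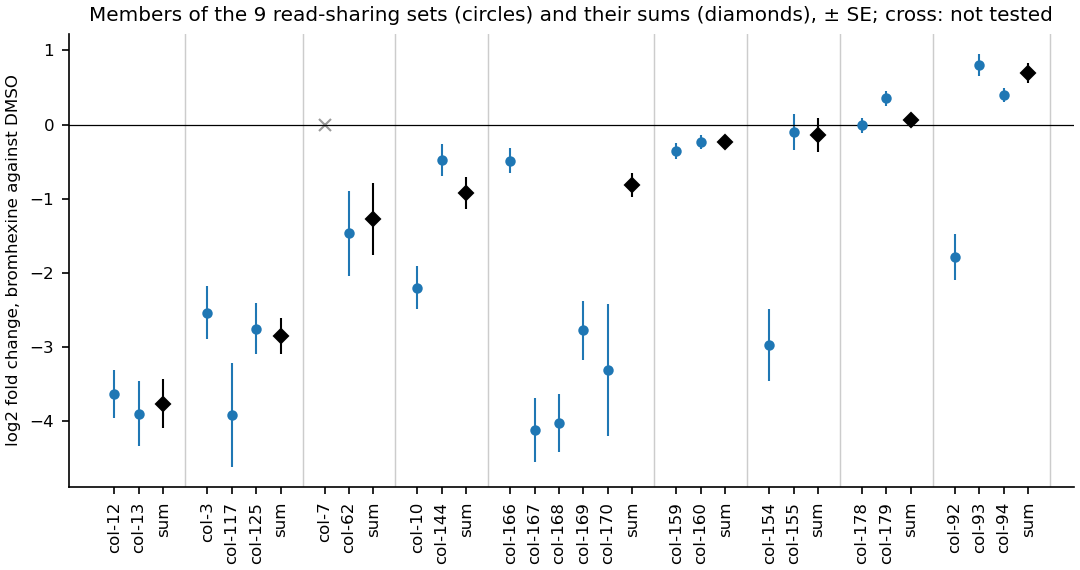
Log2 fold change with bromhexine against DMSO (± SE) of the genes of the 9 read-sharing sets (circles) and of the sum of each set (diamonds); the cross marks col-7, which was not tested. Sums run from -3.76 for col-12 with col-13 to 0.70 for col-92, col-93 and col-94.

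Neighbours in the genome did not always move alike. With gaps of at most 10000 bases, 50 of the 156 genes lay in 21 clusters. In 2 clusters a gene rose beside one that fell: the trio col-92, col-93 and col-94 (III, start 10982139, end 10987873), which shares reads, and the group of col-141, col-142 and col-143 (V, start 6829704, end 6836704). In the latter col-142 rose by 0.90 and col-143 fell by 0.51 on the log2 scale, and decimals that add up between them were found in 1 library of 12, under the minimum of 6. In the cluster of col-17, col-20 and col-73 (II, start 4866436, end 4873129) all 3 fell, col-17 and col-73 nearly to 0 and the abundant col-20 from 309 ± 57.0 to 220 ± 62.5 CPM (-0.48 ± 0.16, adjusted p = 0.0258).

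With genipin no numbered col gene passed the adjusted test, as against 0.0365% of all genes, which is 5 genes. The smallest adjusted p was 0.123, that of col-12. At an unadjusted p under 0.05, 30 of the 108 tested genes were lower and 4 higher, against 2.05% and 2.85% of all genes. Of the 88 genes at 1 CPM or more, 27 were lower and 4 higher at that level (2.02% and 2.84% of all genes there). Among these 88, 19 had no overlap and were lower, and 4 had no overlap and were higher (1.63% and 1.40% of all genes there). Without genipin replicate 1 these were 20 and 4, beside 2.91% and 2.44% of all genes there. With all libraries DESeq2 called 6 genes lower (col-12, col-13, col-77, col-91, col-92 and col-168) and 1 higher (col-158), and limma voom called none. Without genipin replicate 1 edgeR called none of the 88, and at an unadjusted p under 0.05 27 of the 88 were lower and 2 higher. Without genipin replicate 3 edgeR called 4 lower: col-77, col-91, col-125 and col-161.

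The difference by level was visible with genipin too, in values that did not pass the adjusted test. The median log2 fold change was 0.12 for the abundant genes, -0.10 for the intermediate and -0.55 for the scarce genes, of which 40 of 49 were below 0. Over all genes of these classes the medians were 0.01, -0.01 and -0.0032. Without genipin replicate 1 the 3 medians of the numbered col genes were 0.11, -0.09 and -0.49. Over the left-out libraries the scarce median ran from -0.34, without DMSO replicate 2, to -0.56, without genipin replicate 3. The share of the library was 1.83%, 1.74%, 1.89% and 1.82% (mean 1.82% ± 0.0617), against 1.60% to 1.78% in DMSO. The scarce genes summed to 108, 116, 148 and 113 CPM, and replicate 3, the highest, lay at the lower end of the DMSO range of 148 to 197 CPM. Molting genes summed to 510 CPM in that library and 325 to 354 CPM in the other genipin libraries. In DMSO they summed to 431 CPM in replicate 3, also the highest of its group, and 325 to 341 CPM in the others. The part of these genes in the result was not tested.

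For single genes, col-12 measured 2.00, 1.68, 2.18 and 1.35 CPM with genipin, under every DMSO library (3.69 to 6.25 CPM) and above every bromhexine library. Its log2 fold change against DMSO was -1.39 ± 0.27 (adjusted p = 0.123). The gene col-10 measured 10.8, 9.89, 14.5 and 5.36 CPM (-1.29 ± 0.27, adjusted p = 0.189), and all 4 lay under the lowest DMSO library. In col-17 genipin gave 3.83, 6.05, 11.9 and 3.03 CPM, which overlapped with DMSO (-1.34 ± 0.46, adjusted p = 0.838). The largest difference upward at a small p was that of col-158, from 5.96 ± 0.938 to 9.61 ± 1.04 CPM with no overlap (0.68 ± 0.16, adjusted p = 0.314). Without genipin replicate 1 the log2 fold changes of col-12, col-10, col-17 and col-158 were -1.45, -1.33, -1.17 and 0.61, with adjusted p of 0.264 to 0.9996.

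In the direct comparison, 59 of the 108 genes were lower with bromhexine than with genipin and 8 were higher, beside 34.5% of all genes called and 19.5% called lower. Without genipin replicate 1, 58 of 111 tested genes were lower and 7 higher, beside 2483 lower and 1651 higher of all 13969 tested. Of the 88 genes at 1 CPM or more, 54 were lower and 6 higher (21.2% and 16.0% of all genes of that level), and without genipin replicate 1 52 were lower and 4 higher. Of the 21 abundant genes 13 were called lower and 2 higher, beside 13.8% lower and 22.0% higher among all genes of the class. Without genipin replicate 1 the abundant genes gave 13 lower and 1 higher. The gene col-122 was lower by 0.32 on the log2 scale (adjusted p = 0.0143), and col-101, with 1161, 1089, 1157 and 1154 CPM in genipin, by 0.56 (adjusted p = 0.0041). Among genes of at least 1 CPM over the 12 libraries, the largest differences downward were in col-73 (-6.06, adjusted p = 3.09e-05) and col-17 (-5.59, adjusted p = 0.000134; -10.21 without bromhexine replicate 1, which held all its bromhexine counts), while col-161 had 1 count with bromhexine against 64 with genipin, a ratio of 62.3 (10.8 to 2498). Upward, at the same level limit, they were in col-36 (4.52), col-43 (0.94, adjusted p = 0.0098) and col-142 (0.76, adjusted p = 0.0024). Under that limit col-135 was called higher by 1.87 (adjusted p = 0.0015). As col-36 passed the filter and the limit of 1 CPM only through the bromhexine libraries, its value is given as description. The gene col-158, not called against DMSO for either compound, was lower with bromhexine than with genipin (-0.78, adjusted p = 0.0023).

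Other collagens of the cuticle also fell with bromhexine; the counts below stand beside 2979 lower (21.8%) and 2602 higher of all 13695 genes. Of the furrow collagens, which assemble at the circumferential furrows of the cuticle, 5 of 6 were tested and 4 fell, with a median log2 fold change of -1.03; the call of dpy-2 was lost without DMSO replicate 3 or bromhexine replicate 2 or 3 (adjusted p of 0.0568 to 0.0833). Of 15 collagens named for body shape, 12 were tested and 10 fell, with a median of -3.32. The largest fall of these was dpy-13, from 12.7 ± 6.66 to 0.0385 CPM (-8.36 ± 0.83, adjusted p = 3.31e-06). All its counts with bromhexine came from replicate 1, and the fitted value without that library was -11.24, against a group at 0. The abundant dpy-17 fell from 212 ± 35.9 to 128 CPM (-0.73 ± 0.17, adjusted p = 0.0048). By contrast none of the 4 collagens outside the cuticle was called lower: the chain of basement membrane collagen let-2 was called higher (0.56 ± 0.21, adjusted p = 0.0454), a call lost without DMSO replicate 2 or 3 or any 1 bromhexine library, with adjusted p of 0.0559 to 0.136, and under DESeq2 (0.0623) and upper quartile scaling (0.0678).

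Of 18 tested genes for modification and assembly of collagen, 8 fell and 2 rose. The fallen ones include dpy-18 and phy-2, subunits of prolyl 4-hydroxylase, at -0.55 ± 0.11 (adjusted p = 0.0017) and -0.56 ± 0.14 (adjusted p = 0.0073), their partner pdi-2 (-0.55 ± 0.12, adjusted p = 0.0019) and the procollagen protease gene dpy-31 (-0.60 ± 0.12, adjusted p = 0.0012). The gene sec-23, of the coat of vesicles that leave the endoplasmic reticulum, rose by 0.33 ± 0.08 (adjusted p = 0.0039), and tmem-131, known for a part in collagen secretion, rose as well (0.22 ± 0.07, adjusted p = 0.0276). Of 11 molting genes 7 fell, with noah-1, a zona pellucida protein of the cuticle, at -1.03 ± 0.16 (adjusted p = 0.000227). Of 14 regulators 3 fell, a share near that of all genes: the GATA factor gene elt-1 (-0.86 ± 0.15, adjusted p = 0.000408), the nuclear receptor gene nhr-25 (-0.84 ± 0.13, adjusted p = 0.00021) and sma-3 (-0.48 ± 0.15, adjusted p = 0.0216), a Smad of the body size pathway. The nuclear receptor gene nhr-23, which drives molting cycles, rose by 0.40 ± 0.11 (adjusted p = 0.0121), and lin-29 did not pass the test (-0.13 ± 0.25). With genipin none of these genes was called.

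Markers of other tissues moved with bromhexine as well, and their part in the result was not tested. Of the hypodermis markers, wrt-10 (-1.14 ± 0.19) and che-14 (-1.02 ± 0.23) fell while pah-1, a phenylalanine hydroxylase gene, rose (0.95 ± 0.10, adjusted p = 1.02e-05). Smaller rises were called in vab-10 (0.34 ± 0.08), osm-11 (0.34 ± 0.09) and lin-26 (0.17 ± 0.06). Of germ line markers 10 of 11 tested were called higher and none lower, of body wall muscle markers 6 of 10, of intestine markers 5 of 9 and of sperm markers 2 of 8, again with none lower. Neuron markers split into 2 higher and 2 lower of 10, and the neuron and sperm counts are near the 2602 of 13695 genes called higher overall. The summed intestine markers measured 22494 to 28262 CPM in DMSO and 40684 to 44983 CPM with bromhexine, and the summed germ line markers 6044 to 7396 and 7265 to 9345 CPM.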

How the data were processed

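Paired reads of 150 nt were made from whole-worm RNA in 12 libraries, 4 per group, per the labels' protocols. Per the submitters' processing notes, the authors used FastQC, STAR 2.7.11b, RSEM 1.3.3 and the build WBcel235; no annotation release or trimming step is named there. As deposited by the authors, each value is an RSEM expected count, not scaled to depth, and 2.06% of them carry decimals because reads that match several genes are divided. Such division makes single genes of a read-sharing set less certain than their sum. Names and positions came from the WBcel235 annotation of Ensembl release 115, in which all 46926 genes were found.

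The counts were rounded to whole numbers, and edgeR 4.0.16 was run in R 4.3.3: filterByExpr on the 3 groups, TMM, 1 quasi-likelihood fit of the 12 libraries with group as the only term, and Benjamini-Hochberg adjustment over 13695 genes at 0.05. Standard errors were derived from the fold change and its F statistic. Over all genes, the biological coefficient of variation came to 12.1%. Alternatives were DESeq2 1.42.0, limma 3.58.1 voom, other scalings and filters, the replicate block, 8-library fits, 0.01 as threshold, each library left out, other class limits, and summed read-sharing sets, the last chosen after the data were seen. The procedure was also tested on simulated data. Libraries of 20.3 to 28.1 M counts make 3 counts 0.105 to 0.154 CPM. Replicates of a group differed by more than sampling noise.

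Named genes were the 8 most abundant in DMSO, all called higher with bromhexine, the 8 largest non-overlapping falls at 1 CPM or more, the 3 smallest p, the 5 largest called differences each way with genipin (there were none), any called in opposite directions by the compounds, the 3 largest called differences each way between the compounds, 13 chosen from background knowledge, and up to 3 called genes of each other list. Others named here, such as col-98, col-20, col-158, dpy-17, phy-2, lin-29, tmem-131 and members of read-sharing sets, were chosen after their values were seen. The members, classes and gene lists were chosen with earlier results of these data known.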

Additional observations from a re-analysis of the deposited data

Results flagged for a closer look

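For the named genes, each group of 4 libraries was searched for 1 library far from the other 3, by Dixon's ratio, which by chance marks about 1 group in 20. Of 99 groups, 12 held such a library. Genipin replicate 3 was the one in 5 of them: above the other genipin libraries for col-161 (1.40 CPM against 0.427 to 0.554), col-91 (0.747 against 0.178 to 0.256), col-41 (4.48 against 1.67 to 1.96) and col-77 (1.96 against 0.622 to 0.809), and under them for col-43 (5.37 CPM against 10.4 to 10.5). DMSO replicate 2 was above the other DMSO libraries for col-90 (7.58 CPM against 3.28 to 3.65) and col-62 (1.44 against 0.431 to 0.555). Bromhexine replicate 4 was high for col-95 (1268 CPM against 897 to 936). Bromhexine replicate 3 was high for col-13 (0.645 CPM against 0.112 to 0.182) and low for col-36 (5.26 CPM against 7.68 to 8.15). Genipin replicate 1 was high for col-36 (0.535 CPM against 0.233 to 0.256), and genipin replicate 2 was low for col-101 (1089 CPM against 1154 to 1161).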

How the results depend on the processing

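Replicate numbers did not pair the bromhexine libraries with the others: same-numbered libraries correlated at -0.166 to 0.012 in their deviations. Between DMSO and genipin, replicates 2, 3 and 4 gave 0.203 to 0.306, each above every other-numbered pair of the same libraries, while replicate 1 gave 0.02. These were the 3 of 12 same-numbered pairs above 0.1. Whether DMSO and genipin libraries were paired by number is therefore not settled, and the labels do not say what a number marks. With the replicate block 8 numbered col genes were higher and 67 lower with bromhexine, none was called with genipin, and 8 and 61 differed between the compounds. With each library left out in turn, bromhexine gave 56 to 71 lower and 7 to 8 higher, a median log2 fold change of -1.11 to -0.83, 6 to 13 abundant and 33 to 36 scarce genes lower, and a share of 1.23% to 1.40%. Likewise genipin gave 0 to 4 lower, 0 to 3 of them scarce, none higher, a median of -0.26 to -0.06 and a share of 1.80% to 1.85%. The share in DMSO was 1.68% to 1.74%. Bromhexine against genipin gave 52 to 66 lower, 6 to 9 higher and a median of -0.92 to -0.69.

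With genipin, DESeq2 called 6 lower, all 6 scarce, and 1 higher, and the fit with no filter called 3 lower, 2 of them scarce (col-10, col-12 and col-13); over all genes genipin calls ran from 1 to 14 higher and 0 to 17 lower. A filter of 1 CPM in 4 libraries gave a bromhexine median of -0.68, with fewer genes tested. At an adjusted p under 0.01, 5 rose with bromhexine, and 5 were higher than with genipin. As a share of tested genes without vitellogenins, the numbered col genes took 1.87% in DMSO, 1.51% with bromhexine and 2.03% with genipin. Summed read-sharing sets left 6 higher and 56 lower. Of the uncalled bromhexine differences, that of col-140 changed sign under voom (-0.013), upper quartile scaling (-0.039), no filter (-0.0062), the 1 CPM filter (-0.000932), the block (-0.0051) and the 8-library fit (-0.0039), and ran from -0.144 to 0.070 over the left-out libraries. Over these, col-119 ran from -0.048 to 0.15 and col-19 from -0.043 to 0.28, both lowest without bromhexine replicate 4. The cause was not tested. The planned sum of near-identical proteins was not run. Genes under about 0.1 CPM rest on a few counts, and differences there were not detectable at this depth.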
